A study of Homo sapiens with 3 samples.

Results

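The genes described here are the carriers that move amino acids and related small molecules across the membranes of the cell, taken as 7 families of the solute carrier (SLC) nomenclature. A gene was a member when a probe set with a single gene symbol named it SLC1A, SLC3A, SLC6A, SLC7A, SLC36A, SLC38A or SLC43A followed by a number, with antisense symbols and SLC7A11 left out. The rule found 55 genes, read by 135 probe sets, among 19775 genes in all. Of these, 7 belong to SLC1, 2 to SLC3, 18 to SLC6, 12 to SLC7, 2 to SLC36, 11 to SLC38 and 3 to SLC43. The cells were SKBR3, an established human breast cancer line, and each of 3 groups was measured once on a whole-genome expression array. They had spent 4 h in medium with 10% charcoal-stripped serum, a serum cleared of steroid hormones, and were then held for 3 h with 1 µM estradiol, with 1 µM of the peptide ERα17p, or with 0.1% ethanol as vehicle. All 3 groups share the line and the preincubation. No label names the peptide's solvent, and the sample labels give an ethanol share for the vehicle group only. ERα17p copies a short stretch of oestrogen receptor α, a receptor that SKBR3, with its amplified ERBB2 gene, is known to lack.

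Amino acid carriers work as exchangers, as sodium- or proton-driven pumps, or as facilitators that let their substrates run down a gradient. Sodium-coupled carriers of the SLC38 and SLC6 families load the cell with glutamine and other neutral amino acids, which exchangers of the SLC1 and SLC7 families trade for the essential ones. The SLC7 light chains reach the cell surface only when linked to a heavy chain of the SLC3 family, of which SLC3A2 (CD98) serves most of them. In breast cancer cells the exchangers SLC7A5 and SLC1A5 are known as suppliers of leucine and glutamine to the growth-controlling kinase complex mTORC1. When amino acids run short, the transcription factor ATF4 is known to raise several of these carriers together with enzymes that make amino acids.

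Each value is a distance, on the log2 scale, from a baseline that the authors had subtracted per probe set, so that a difference between arrays can be read and the level of a gene cannot. A gene hardly expressed in SKBR3 can therefore not be told from an expressed one, nor less RNA per cell from fewer cells. A gene's value is the median over its probe sets. A gene is called lower or higher where 2 arrays differ by at least 1.5-fold. With 1 array per group no difference below has an error, a test or a replicate check. The vehicle array stood apart. The SD over probe sets was 0.12 with estradiol, 0.13 with ERα17p and 0.27 with vehicle. The 3′ minus 5′ distance of the control gene ACTB was 0.02 with estradiol, -0.04 with ERα17p and 0.30 with vehicle, and that of GAPDH was 0.01, -0.03 and 0.05 on the same arrays. Both comparisons with vehicle share that array, and its part in them was not tested. The comparison of estradiol with ERα17p does not use it. Of the 6 SKBR3 markers ERBB2, GRB7, KRT8, KRT18, KRT19 and EPCAM and the genes ESR1 and VIM, 0 of 8 passed 1.5-fold in any comparison, and whether they were present cannot be read from such values.

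The transporter families as a whole stayed close to vehicle. With estradiol, 0 of 55 genes were lower, where 2.93% of all genes were, and 0 were higher, where 0.809% of all genes were. With ERα17p, 0 of 55 were lower, against 2.14% of all genes, and 1 was higher, against 0.582%. That gene was SLC6A18, a kidney-type neutral amino acid carrier read by a single probe set. Between estradiol and ERα17p, 0 of 55 were lower, against 0.207% of all genes, and 0 were higher, against 0.147%. At these shares of all genes, 55 genes hold few calls in any case, so the counts do not set the families apart from other genes.

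The differences themselves were small. Estradiol minus vehicle ran from -0.39 for SLC38A2 to 0.51 for SLC6A14, with a median of -0.0017 over the 55 members and 0.03 over all genes. Its SD was 0.19 over the members and 0.30 over all genes, and 45 of 55 members (81.8%) lay within 0.25 of 0, against 74.6% of all genes. ERα17p minus vehicle ran from -0.29 for SLC38A2 to 0.61 for SLC6A18, with a median of 0.06 over the members and 0.03 over all genes, and 37 of the 55 were above 0, as were 11462 of all 19775 genes. For that comparison, 49 of 55 members (89.1%) lay within 0.25, against 79.1% of all genes. Estradiol minus ERα17p ran from -0.49 for SLC38A3 to 0.34 for SLC43A3, with an SD of 0.16 over the members and 0.16 over all genes. No member was 1.5-fold or more from the authors' baseline on any of the 3 arrays. Of all 19775 genes, 465 were that far above it and 60 that far below it on the vehicle array. On the estradiol array 1 was above and 10 were below, and on the ERα17p array 13 were above and 1 was below. So few genes in all leave little room for calls among 55 members, and this count does not set them apart.

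**Figure D1:**
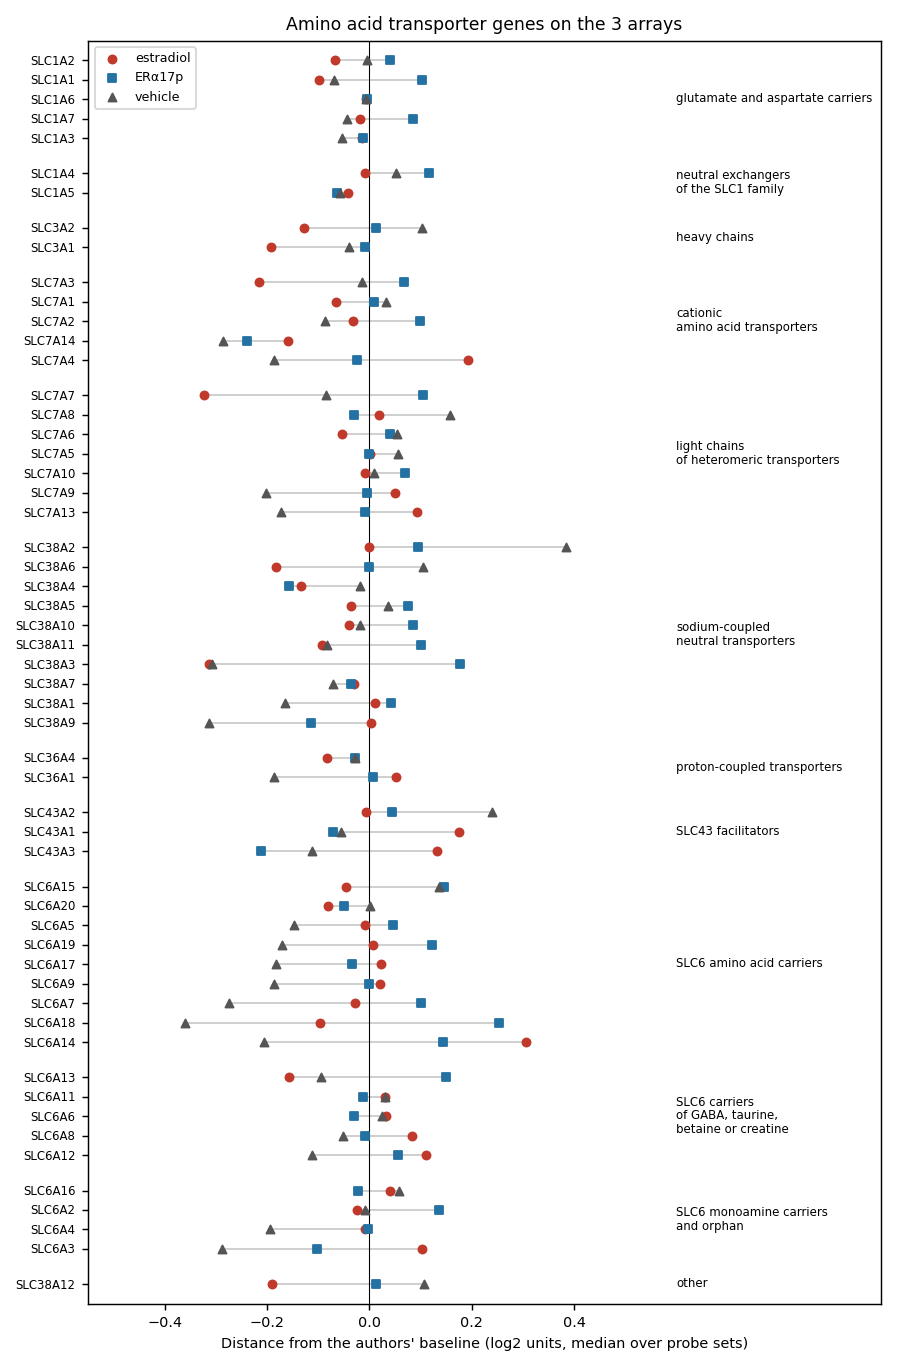
Distance from the authors' baseline (log2 units, horizontal axis) of the 55 transporter genes (rows, grouped by role) on the estradiol array (circles), the ERα17p array (squares) and the vehicle array (triangles). SLC38A2 stands out by its vehicle value of 0.38, and SLC6A14 by its estradiol value of 0.31.

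Single probe sets past 1.5-fold were few as well. Of the 135 probe sets, 0 were lower with estradiol than with vehicle, against 3.71% of all probe sets with a single symbol, and 1 was higher, a probe set of SLC43A3, against 1.38%. With ERα17p, 0 were lower than with vehicle, against 2.76%, and 2 were higher, 1 each of SLC6A18 and SLC6A13, against 0.886%. Between estradiol and ERα17p, 1 probe set of SLC6A13 was lower, against 0.29%, and 1 of SLC43A3 was higher, against 0.314%. SLC43A3 and SLC6A13 each had a second probe set that did not follow, as described with their roles.

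Amino acid shortage is known to act on its target genes through a composite site for C/EBP and ATF factors. Its core was searched here as TGATGNAA, with TTNCATCA for the other strand, in the 300 bases from 250 before to 50 after each transcription start that RefSeq gives on GRCh38.p14. Promoter windows were at hand for 42 of the 55 members. The letters occurred for 6 of these 42 genes (14.3%), namely SLC1A3, SLC1A4, SLC1A5, SLC38A1, SLC3A2 and SLC7A1. They occurred for 1217 of all 27305 genes with a window (4.46%), whether or not the array measured them. By promoter, 6 of 64 member windows (9.38%) held them, against 1270 of 35116 windows (3.62%). The 6 member stretches are shown with the match in capitals, 5′ to 3′ on the strand of the gene. These are all the members found to hold the letters. ASNS, the asparagine synthetase gene on which the element was worked out, is shown for comparison. So is CHAC1, a glutathione-degrading enzyme gene of the ATF4 response. Both hold the letters and were lower on both treated arrays, so the pair cannot show whether letters and values go together. Among other listed genes with the letters, ATF3 and CEBPG were also lower, while AARS1 and GOT1 did not pass 1.5-fold. The SLC38A2 window up to its start is shown because this carrier differed most in the direction of ASNS and CHAC1. It holds no match, and the amino acid response element described for SLC38A2 lies in an intron outside this window. A match is a run of letters and was not tested as a binding site.
SLC1A3 (chr5:36596338-36596425, + strand): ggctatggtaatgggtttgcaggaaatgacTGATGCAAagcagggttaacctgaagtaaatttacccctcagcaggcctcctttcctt
SLC1A4 (chr2:64989381-64989410, + strand): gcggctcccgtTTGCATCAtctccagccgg
SLC1A5 (chr19:46784854-46784961, - strand): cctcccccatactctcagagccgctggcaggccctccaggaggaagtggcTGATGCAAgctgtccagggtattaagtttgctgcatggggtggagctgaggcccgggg
SLC38A1 (chr12:46266502-46266531, - strand): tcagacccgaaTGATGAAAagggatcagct
SLC3A2 (chr11:62881725-62881748, + strand): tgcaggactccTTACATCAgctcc
SLC7A1 (chr13:29595663-29595692, - strand): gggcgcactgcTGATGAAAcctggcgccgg
SLC38A2 (chr12:46372774-46373023, - strand): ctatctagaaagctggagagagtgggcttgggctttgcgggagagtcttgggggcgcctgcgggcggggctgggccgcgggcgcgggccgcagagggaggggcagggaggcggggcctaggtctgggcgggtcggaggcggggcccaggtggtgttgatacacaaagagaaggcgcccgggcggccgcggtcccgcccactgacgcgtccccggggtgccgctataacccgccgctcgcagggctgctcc
ASNS (chr7:97872419-97872526, - strand): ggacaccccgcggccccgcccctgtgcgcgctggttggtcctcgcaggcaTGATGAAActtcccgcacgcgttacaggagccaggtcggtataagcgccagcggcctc
CHAC1 (chr15:40953221-40953319, + strand): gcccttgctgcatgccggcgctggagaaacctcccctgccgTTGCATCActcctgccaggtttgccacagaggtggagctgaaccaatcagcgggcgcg

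Counted from the transcription start, the match begins at base -97 in SLC1A5, at base -220 in SLC1A3 and at base -68 in ASNS. In SLC1A4 and SLC38A1 it spans the start, and in SLC7A1 and SLC3A2 it lies after it. The 6 members that hold the letters lay on both sides of 0 in both comparisons with vehicle. For estradiol minus vehicle SLC1A3 had 0.04, SLC1A4 -0.06, SLC1A5 0.01, SLC38A1 0.18, SLC3A2 -0.23 and SLC7A1 -0.10. For ERα17p minus vehicle they had 0.04, 0.06, -0.0067, 0.21, -0.09 and -0.02 in the same order. Without probe sets that can bind several transcripts, SLC7A1 was at -0.27, SLC1A4 at -0.21 and SLC38A1 at 0.15 for estradiol minus vehicle. SLC3A2 then had no value. Whether the letters bear on these values was not tested.

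Among the sodium-coupled neutral carriers, SLC38A2, which takes up glutamine and alanine and is known to be raised when amino acids are short, was the member with the most negative difference from vehicle. Its value was -0.0014 with estradiol, 0.09 with ERα17p and 0.38 with vehicle. That is -0.39 for estradiol minus vehicle and -0.29 for ERα17p minus vehicle, short of 1.5-fold in both. Among all genes, 6.37% had an estradiol difference as negative as this or more, and 8.20% had such an ERα17p difference. Its 3 probe sets gave -0.44, -0.42 and -0.39 for estradiol minus vehicle, and -0.27, -0.25 and -0.30 for ERα17p minus vehicle. It was the only member with 3 or more probe sets that were all below 0 in either comparison with vehicle. All 3 carry a suffix for probe sets that can bind several transcripts. Set against the authors' baseline and not against vehicle, the estradiol and ERα17p arrays lay at -0.0014 and 0.09.

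Its neighbours went different ways. SLC38A1, SLC38A2 and SLC38A4 follow each other on chromosome 12 with no other protein-coding gene between them. SLC38A1, a glutamine carrier of the plasma membrane, had 0.01 with estradiol, 0.04 with ERα17p and -0.16 with vehicle, and its 4 probe sets ran from -0.23 to 0.28 for estradiol minus vehicle. SLC38A4, a carrier best known from liver and placenta, had -0.13 with estradiol, -0.16 with ERα17p and -0.02 with vehicle. SLC38A2 and SLC38A4 were thus below vehicle on both treated arrays and SLC38A1 was above it.

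Of the other SLC38 genes, SLC38A3 differed most between the treated arrays, though short of 1.5-fold. SLC38A3, the glutamine carrier of liver, kidney and brain, had -0.31 with estradiol, 0.18 with ERα17p and -0.31 with vehicle, by a single probe set. Its estradiol minus ERα17p difference of -0.49 was the most negative of all members, with 0.460% of all genes as negative or more. SLC38A9, which senses arginine at the lysosome for mTORC1, had 0.0023 with estradiol, -0.11 with ERα17p and -0.31 with vehicle. Its probe sets were opposed for estradiol minus ERα17p, at -0.09 and 0.32. SLC38A6 and SLC38A12, each with 1 probe set, had -0.29 and -0.30 for estradiol minus vehicle and -0.11 and -0.09 for ERα17p minus vehicle. Over the 10 SLC38 genes with a fixed role, 7 were below 0 for estradiol minus vehicle (median -0.02) and 3 for ERα17p minus vehicle (median 0.07). SLC38A12 was given no role and is counted apart.

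Most of the SLC6 amino acid carriers were above vehicle on both treated arrays. Of 9 genes, 7 were above 0 for estradiol minus vehicle (median 0.20, against 0.03 over all genes) and 8 for ERα17p minus vehicle (median 0.19, against 0.03). Of all 19775 genes, 11091 were above 0 for estradiol minus vehicle and 11462 for ERα17p minus vehicle. The median of the 9 carriers was -0.0086 with estradiol, 0.10 with ERα17p and -0.18 with vehicle. Both comparisons subtract the same vehicle array, so they are not separate observations of a rise. Several of these genes are known from kidney, gut or brain, and whether SKBR3 expresses them cannot be read here.

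SLC6A14, a concentrative carrier of neutral and cationic amino acids that is known as oestrogen-responsive in receptor-positive breast cancer cells, had the largest estradiol difference upward. It had 0.31 with estradiol, 0.14 with ERα17p and -0.21 with vehicle, by 1 probe set, which makes 0.51 for estradiol minus vehicle, 0.35 for ERα17p minus vehicle and 0.16 for estradiol minus ERα17p. Among all genes, 1.67% had an estradiol difference as high or higher, and 4.74% an ERα17p difference. SLC6A18 had -0.10 with estradiol, 0.25 with ERα17p and -0.36 with vehicle, a difference of 0.61 for ERα17p minus vehicle and 0.26 for estradiol minus vehicle. Its vehicle value was the lowest of all members. Its neighbour on chromosome 5, SLC6A19, the neutral amino acid carrier affected in Hartnup disorder, had 0.0070 with estradiol, 0.12 with ERα17p and -0.17 with vehicle. All 3 of its probe sets were above 0 for ERα17p minus vehicle. SLC6A7, the brain proline carrier, had -0.03 with estradiol, 0.10 with ERα17p and -0.27 with vehicle. The exceptions in the role, by gene value, were SLC6A15 and the proline carrier SLC6A20. SLC6A15 was at -0.18 for estradiol minus vehicle. SLC6A20 was at -0.08 for estradiol minus vehicle and -0.05 for ERα17p minus vehicle. The probe sets of SLC6A20 disagreed in sign, at 0.03 and -0.20 for estradiol minus vehicle and -0.14 and 0.03 for ERα17p minus vehicle.

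**Figure D2:**
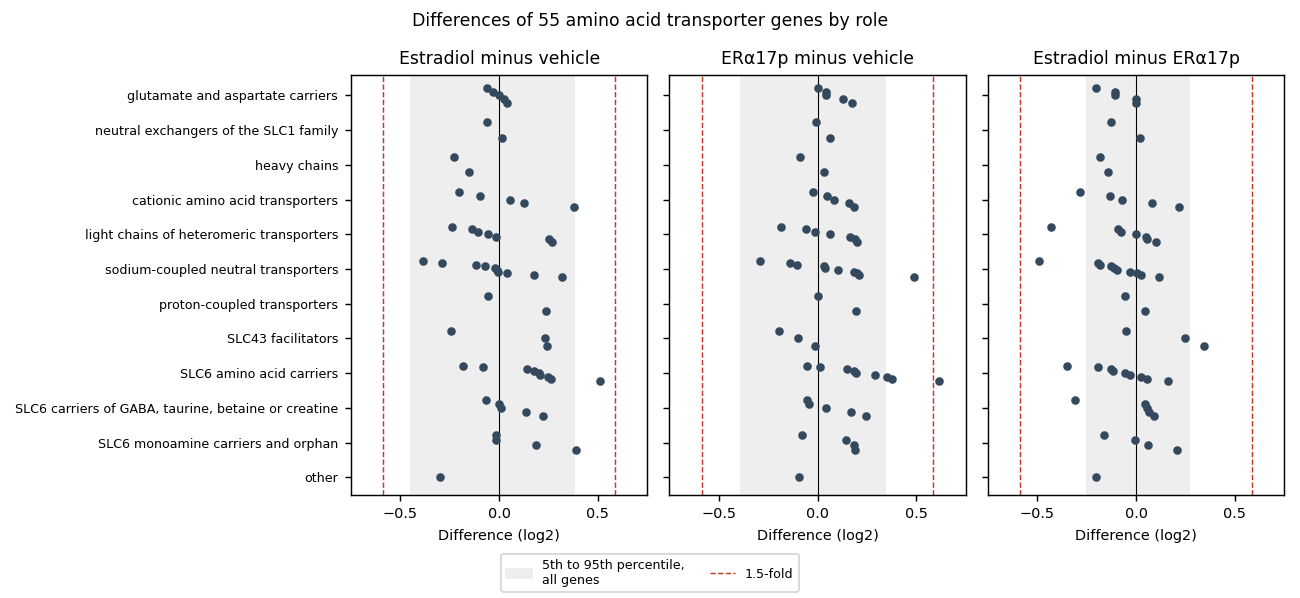
Differences between arrays (log2, horizontal axes) of the 55 transporter genes, 1 point per gene, by role and for each of the 3 comparisons. Grey bands hold the 5th to 95th percentile of all genes and dashed lines mark 1.5-fold. In the ERα17p panel SLC6A18 lies past the line at 0.61, and the SLC6 amino acid carriers lie mostly right of 0 in both comparisons with vehicle.

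The heavy chains and their light chains showed small differences. SLC3A2 had -0.13 with estradiol, 0.01 with ERα17p and 0.10 with vehicle, by 1 probe set. SLC3A1, which anchors the cystine carrier of the kidney, had -0.19 with estradiol, -0.0087 with ERα17p and -0.04 with vehicle. Both heavy chains were below 0 for estradiol minus vehicle, at -0.23 and -0.15, and for estradiol minus ERα17p, at -0.14 and -0.18. The 3 probe sets of SLC3A1 disagreed, at -0.26, 0.19 and -0.10 for estradiol minus vehicle and -0.26, 0.34 and -0.26 for estradiol minus ERα17p. SLC7A5, the light chain that imports leucine, had 0.00096 with estradiol, -0.00096 with ERα17p and 0.06 with vehicle, so that it differed from vehicle by -0.05 with estradiol and -0.06 with ERα17p. The treated arrays' values are mirror images around 0.

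Of the 7 light chains, 5 were below 0 for estradiol minus vehicle (median -0.05) and 3 for ERα17p minus vehicle (median 0.06). SLC7A7, an exchanger of cationic for neutral amino acids, had -0.32 with estradiol, 0.10 with ERα17p and -0.09 with vehicle. Its estradiol minus ERα17p difference of -0.43 had 0.769% of all genes as negative or more, and it came from 1 probe set. SLC7A6, a related exchanger, had -0.05 with estradiol, 0.04 with ERα17p and 0.05 with vehicle. SLC7A8, a light chain for small and large neutral amino acids, had 0.02 with estradiol, -0.03 with ERα17p and 0.16 with vehicle, but its 5 probe sets ran from -0.30 to 0.43 for estradiol minus vehicle. Without probe sets that can bind several transcripts its estradiol difference was 0.21, and with all of them it was -0.14. SLC7A13, a light chain of the kidney, had 0.09 with estradiol, -0.0078 with ERα17p and -0.17 with vehicle.

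Among the cationic amino acid transporters, SLC7A1, the main arginine and lysine importer of many cells, was read most unevenly. Its value was -0.06 with estradiol, 0.0079 with ERα17p and 0.03 with vehicle. Its 5 probe sets gave -0.52, -0.27, -0.10, -0.02 and 0.43 for estradiol minus vehicle and -0.33, -0.11, -0.02, -0.0085 and 0.35 for ERα17p minus vehicle, in the same order. In each comparison 4 probe sets were below 0 and 1 was above. SLC7A4, a relative with no firmly assigned substrate, had 0.19 with estradiol, -0.03 with ERα17p and -0.19 with vehicle. SLC7A3, a cationic carrier read by 1 probe set, had -0.22 with estradiol, 0.07 with ERα17p and -0.01 with vehicle.

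Of the exchangers of the SLC1 family, SLC1A5 was close to vehicle and SLC1A4 was read unevenly. SLC1A5, the glutamine exchanger, had -0.04 with estradiol, -0.06 with ERα17p and -0.06 with vehicle, differences of 0.01 and -0.0067 by its single probe set. SLC1A4, which exchanges alanine, serine and cysteine, had -0.0095 with estradiol, 0.12 with ERα17p and 0.05 with vehicle. Its 5 probe sets gave -0.37, -0.26, -0.21, 0.05 and 0.05 for estradiol minus vehicle and ran from -0.36 to 0.23 for ERα17p minus vehicle. Its estradiol minus vehicle difference of -0.06 became -0.15 with means over probe sets. It became -0.21 both with the median of the probe-set differences and without probe sets that can bind several transcripts. The 5 glutamate and aspartate carriers are known chiefly from nerve tissue. Their gene values ran from -0.06 to 0.04 for estradiol minus vehicle and from 0.0029 to 0.17 for ERα17p minus vehicle. Single probe sets ran wider, from -0.26 to 0.25 in SLC1A2 and from -0.01 to 0.39 in SLC1A7 for estradiol minus vehicle. For ERα17p minus vehicle those of SLC1A7 ran from 0.11 to 0.48. The widest carrier by gene value was SLC1A1, the glutamate carrier found outside the brain as well. It had -0.10 with estradiol, 0.10 with ERα17p and -0.07 with vehicle.

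The SLC43 facilitators were split. SLC43A1, a carrier of branched-chain amino acids, had 0.18 with estradiol, -0.07 with ERα17p and -0.06 with vehicle. SLC43A2, a carrier of the same substrates, had -0.0061 with estradiol, 0.04 with ERα17p and 0.24 with vehicle. Its probe sets disagreed with ERα17p, at 0.26 and -0.17, and gave 0.06 and -0.45 for ERα17p minus vehicle. For estradiol minus vehicle they gave -0.21 and -0.28. SLC43A3, which is known to carry purine bases, had 0.13 with estradiol, -0.21 with ERα17p and -0.11 with vehicle. The probe set of SLC43A3 past 1.5-fold had 0.34 with estradiol, -0.25 with ERα17p and -0.27 with vehicle, and its other probe set had -0.08, -0.17 and 0.04 on the same arrays. SLC43A1 and SLC43A3 lie close together on chromosome 11 with 1 coding gene between them, and both were above ERα17p with estradiol, by 0.25 and 0.34. SLC36A1, a proton-coupled exporter of lysosomes, had 0.05 with estradiol, 0.0071 with ERα17p and -0.19 with vehicle. SLC36A4, the other proton-coupled member, had -0.08 with estradiol, -0.03 with ERα17p and -0.03 with vehicle.

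Among the carriers of GABA, taurine, betaine or creatine, probe sets lay furthest apart for SLC6A6 and SLC6A13. Those of SLC6A11 also differed in sign, from -0.04 to 0.08 for estradiol minus vehicle and from -0.15 to 0.03 for ERα17p minus vehicle. SLC6A6, the taurine carrier, had 0.03 with estradiol, -0.03 with ERα17p and 0.02 with vehicle, while its 5 probe sets ran from -0.33 to 0.28 for estradiol minus vehicle. SLC6A8, the creatine carrier, had 0.08 with estradiol, -0.0082 with ERα17p and -0.05 with vehicle, and all 3 of its probe sets were above 0 in both comparisons with vehicle. SLC6A13, a GABA and taurine carrier, had -0.16 with estradiol, 0.15 with ERα17p and -0.09 with vehicle. The probe set of SLC6A13 past 1.5-fold had -0.25 with estradiol, 0.36 with ERα17p and -0.24 with vehicle, whereas the other gave -0.07, -0.07 and 0.05. Its neighbour SLC6A12, the betaine carrier, had 0.11 with estradiol, 0.06 with ERα17p and -0.11 with vehicle. The monoamine carriers are SLC6 members of another substrate class, and the dopamine carrier SLC6A3 among them had 0.10 with estradiol, -0.10 with ERα17p and -0.29 with vehicle by 1 probe set.

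How far probe sets of 1 gene agreed shows how evenly the gene was read, but not how far arrays or cultures vary. The shares were not matched for the number of probe sets per gene. Of the 55 members, 20 had 1 probe set and 35 had 2 or more, up to 8 for the noradrenaline carrier SLC6A2. All probe sets of a gene had the same sign for 12 of the 35 (34.3%) in each of the 3 comparisons, against 46.5% of all such genes for estradiol minus vehicle, 46.1% for ERα17p minus vehicle and 38.7% for estradiol minus ERα17p. With 3 or more probe sets, 2 of 20 members agreed in sign for estradiol minus vehicle, SLC38A2 and SLC6A8, against 31.9% of all such genes. For ERα17p minus vehicle 5 of 20 agreed, SLC1A7, SLC38A2, SLC6A19, SLC6A8 and SLC7A2, against 30.4%. For estradiol minus ERα17p 6 of 20 agreed, against 23.8%.

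**Figure D3:**
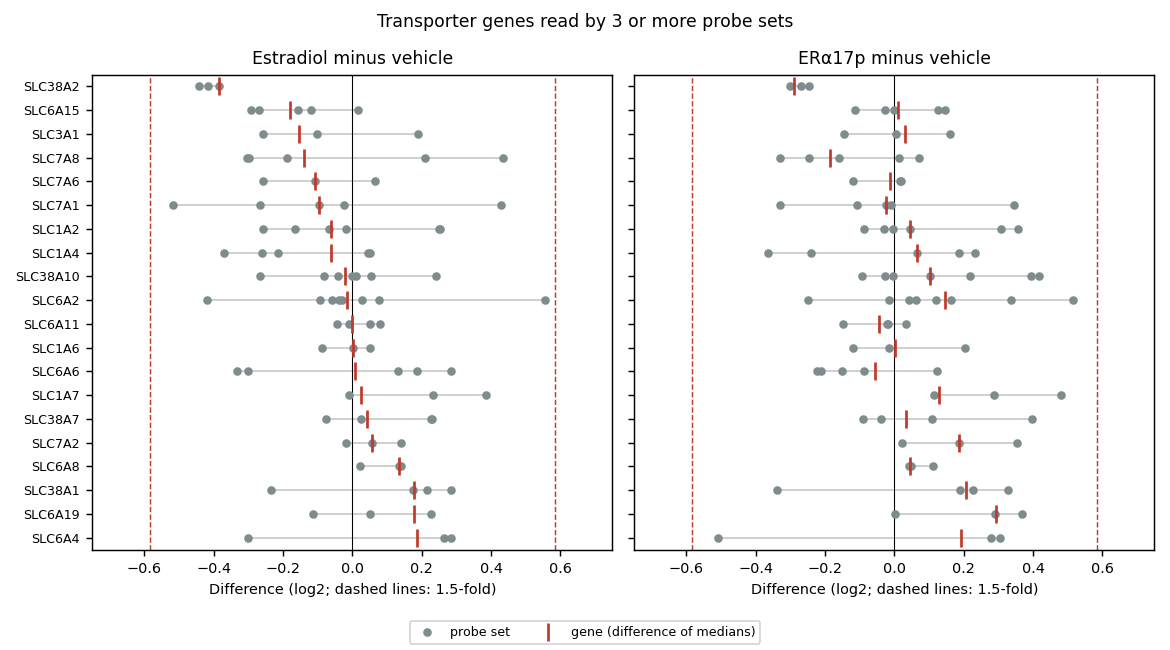
Differences from vehicle (log2, horizontal axes) of the 20 transporter genes with 3 or more probe sets, for estradiol (left) and ERα17p (right). Points are probe sets, upright red marks the gene values and dashed lines 1.5-fold. The 3 probe sets of SLC38A2 lie together at -0.44 to -0.39 in the left panel, whereas those of SLC7A1 run from -0.52 to 0.43.

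Among the other listed genes, the regulators of the amino acid response held most of the calls. The lists were chosen with earlier results of these data known, so their counts describe the listed genes and test nothing. Lists of regulators, enzymes, tRNA synthetases, sensors, further carriers and partners were counted by the same 1.5-fold rule, to be read beside the shares of all genes given above. Of 16 regulators of the amino acid response, 9 were lower with estradiol and 0 higher (median -0.81), and 8 were lower with ERα17p and 0 higher (median -0.58). Between the treatments 0 of 16 passed (median -0.15). PPP1R15A, which restores translation after stress, had -0.07 with estradiol, 0.03 with ERα17p and 2.96 with vehicle. CHAC1 had -0.10 with estradiol, 0.05 with ERα17p and 2.58 with vehicle. ATF4 itself had -0.01 with estradiol, 0.16 with ERα17p and 0.74 with vehicle, which was past 1.5-fold for estradiol minus vehicle (-0.75) and just short of it for ERα17p (-0.58). The others lower with both treatments were ATF3, SESN2, DDIT3, CEBPB, DDIT4 and CEBPG, with estradiol minus vehicle differences from -2.35 for ATF3 to -0.88 for CEBPG. TRIB3, an ATF4 target and inhibitor, had 0.11 for estradiol minus vehicle and 0.18 for ERα17p minus vehicle.

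Of 18 enzymes of amino acid synthesis, 2 were lower with estradiol and 1 with ERα17p, and 0 were higher. ASNS had -0.01 with estradiol, 0.03 with ERα17p and 0.71 with vehicle, which gives -0.72 and -0.68. CTH, which makes cysteine from cystathionine, gave -0.60 for estradiol minus vehicle and -0.55 for ERα17p minus vehicle. PHGDH, which opens the serine pathway, gave 0.05 and -0.01. Of 17 cytosolic aminoacyl-tRNA synthetases, which charge tRNA with amino acids, 0 passed in any comparison. The widest were YARS1, at -0.50 for estradiol minus vehicle and -0.54 for ERα17p minus vehicle, and TARS1, at -0.50 and -0.49.

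Of 29 genes of amino acid sensing upstream of mTORC1, 1 was lower with either treatment, the leucine sensor SESN2, which is also in the list of regulators. It had -0.16 with estradiol, 0.06 with ERα17p and 1.79 with vehicle. The next widest were CASTOR2, at 0.24 for estradiol minus vehicle and 0.39 for ERα17p minus vehicle, and MIOS, at -0.38 and -0.22. Of 17 further carriers outside the rule, 1 passed, SLC7A11, the cystine importer that pairs with SLC3A2. It had -0.06 with estradiol, 0.62 with ERα17p and 1.495 with vehicle, which was lower with estradiol than with vehicle (-1.56) and than with ERα17p (-0.69), and lower with ERα17p than with vehicle (-0.87). Of 9 partners that steer transporters to or from the membrane, the kinase SGK1 was lower with both treatments, at -0.01 with estradiol, 0.13 with ERα17p and 1.65 with vehicle. The syntaxin gene STX1A gave -0.26 for estradiol minus vehicle and was lower with ERα17p (-0.60).

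The letters TGATGNAA, held by 4.46% of all genes with a window, were also counted in the promoter windows of the listed genes, whether or not the array measured them. They occurred for 4 of 14 regulators (28.6%), 2 of 15 enzymes (13.3%), 7 of 16 synthetases (43.8%), 0 of 25 sensors, 1 of 15 further carriers (6.67%) and 1 of 7 partners (14.3%). The 7 synthetases include MARS1, which has no gene value here.

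**Figure D4:**
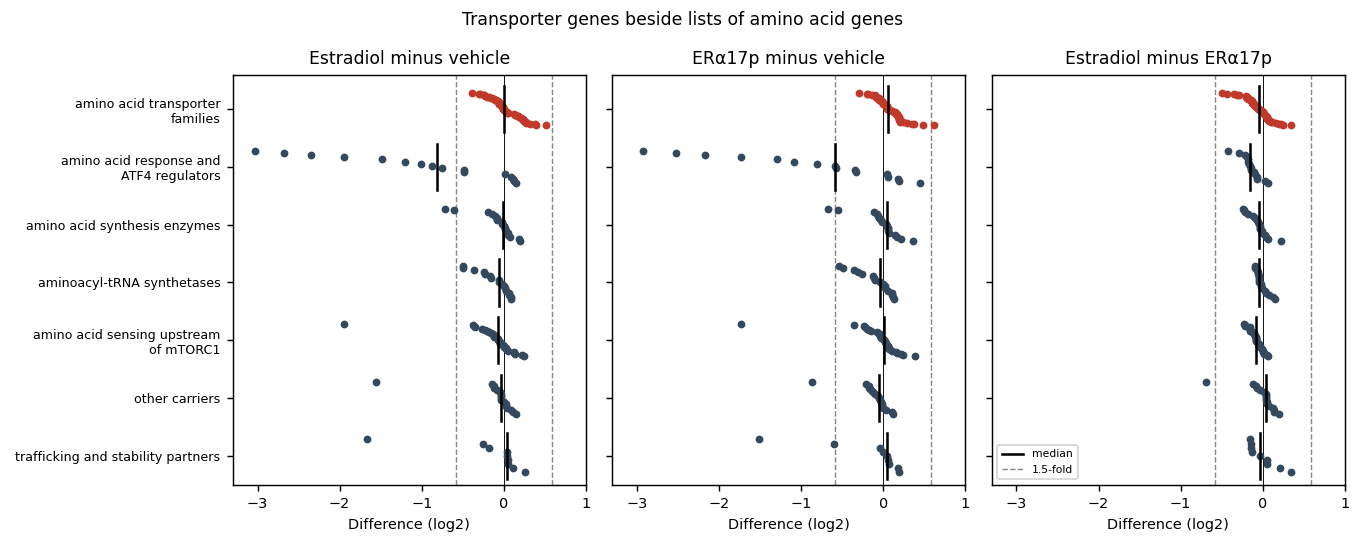
Differences between arrays (log2, horizontal axes) of the 55 transporter genes (top, red) and of the genes of 6 lists of amino acid metabolism (dark points), with medians as black bars and 1.5-fold as dashed lines. The transporter genes lie between -0.39 and 0.51 in the estradiol panel, where the regulators of the amino acid response reach -3.03.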

How the data were processed

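Total RNA of 3 SKBR3 samples was hybridised to 1 Affymetrix array each, and groups were taken from the sample labels. Nothing says whether the samples came from separate cultures. The deposited values were made with RMA, per the submitters' processing notes, which gives background-corrected, quantile-normalised probe-set values. The deposited values were read as log2, although no source names the base. Column medians near 0, and 3979 of 54675 probe sets (7.28%) with mirror-image values on a pair of arrays (tolerance 1e-06, values over 0.001), show that a baseline per probe set had been subtracted. Signal over background is unknown.

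Control probe sets (62) and those with several symbols (1801) or none were left out, which left 41091. Gene values were medians over probe sets, and comparisons were differences of these. Calls took 1.5-fold. Members, roles and lists were chosen with earlier results of these data known. Named members were those past 1.5-fold, the 5 widest each way per comparison, the widest of each role, and a set of carriers known from tumour cells. From each list, members past 1.5-fold or else the 2 widest were named. PHGDH, TRIB3, AARS1, GOT1 and the members SLC1A2, SLC1A3, SLC1A7, SLC3A1, SLC6A11, SLC6A12, SLC6A15, SLC6A20 and SLC36A4 were named after their values were seen. Entrez IDs matched RefSeq symbols (GRCh38.p14) for all 55 members. Promoter sequences are RefSeq's, and neighbouring genes are those of the same assembly. The counting was tested on simulated data with 2-fold changes and the same noise on all 3 arrays. The real vehicle array was wider than the others, so that test does not cover false calls against vehicle. Work was done in Python 3.11.15 with pandas 2.3.3, numpy 2.4.6 and matplotlib 3.10.9.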

Additional observations from a re-analysis of the deposited data

How the results depend on the processing

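Means in place of medians, centred arrays, the stricter 2-fold rule, the authors' baseline in place of vehicle, leaving out probe sets that can bind several transcripts, and the median of the probe-set differences (chosen after seeing the data) were tried. The counts of 0 lower and 0 higher members for estradiol minus vehicle, and of 0 lower for ERα17p minus vehicle, held under each. The 2-fold rule could not have changed a count of 0. The baseline setting only repeats that no member was 1.5-fold or more from the baseline on any array. For ERα17p minus vehicle the count of higher members, 1, became 2 (SLC6A18 and SLC6A13) without probe sets that can bind several transcripts, 0 against the baseline and 0 at 2-fold. For estradiol minus ERα17p the count of lower members, 0, became 1 (SLC6A13) without those probe sets, which leave 44 members and no value for SLC38A2. Of 413 values of 31 named members, 34 moved by more than 0.16, the SD of estradiol minus ERα17p over all genes, and most of these did so against the baseline, 13 for estradiol and 13 for ERα17p. There SLC38A2 had -0.0014 with estradiol and 0.09 with ERα17p. Leaving out a replicate was not possible with 1 array per group. No paired analysis was possible because each group has 1 array. The number of arrays, and the unknown signal over background, limit the precision of each value.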

Other observations

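Probe sets left out by the rule gave values of their own. The antisense gene SLC38A2-AS1 had 2 probe sets, with 0.15 and -0.05 for estradiol minus vehicle and -0.11 and -0.07 for ERα17p minus vehicle. Of the 3 probe sets of SLC7A11, 2 gave -1.56 and -1.63 for estradiol minus vehicle and the other gave 0.04. Of 9 probe sets with several symbols, those naming SLC6A8 with its pseudogene copies gave 0.09, 0.34 and 0.14 for estradiol minus vehicle, and -0.31, 0.12 and 8.3e-05 for ERα17p minus vehicle. SLC7A6OS, whose symbol begins like that of SLC7A6 but which is a gene of its own, gave -0.46 and -0.41 for estradiol minus vehicle and -0.46 and -0.23 for ERα17p minus vehicle.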
